A study of Mus musculus with 90 samples.

Results

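The comparison set vehicle livers from the early runs of animal numbers against vehicle livers from the late runs. Animal numbers were cut into 8 consecutive runs of 50 numbers each, and runs 1 to 4 were called early and runs 5 to 8 late. The rule used the deposited animal number and exposure and no measured value. It took all 41 vehicle livers of the 90 livers profiled, 22 of them early and 19 late. The labels do not say what the runs were, so a run stands here only for neighbouring animal numbers.

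All animals were female J:DO Diversity Outbred mice, so each carried its own mix of founder genomes. The labels give 6 to 20 weeks of age and no age for a single animal. Early and late vehicle animals alike got sterile distilled water orally, 1 dose a day over 7 days. The other 49 animals were given zileuton, a 5-lipoxygenase inhibitor known for liver injury in some patients, at 300 mg per kg on the same schedule, and 33 of them had early and 16 late numbers. Each library was made from the RNA of 25 mg of 1 animal's liver, and RNA with an integrity number below 8 had been set aside, per the labels.

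Bulk liver RNA comes mostly from hepatocytes, whose gene expression differs along the lobule from the portal to the central vein and follows the circadian clock, feeding and hormones. Smaller amounts come from Kupffer cells, the resident macrophages, and from lymphocytes, endothelium and stellate cells. Interferon target genes and antigen presentation genes answer to immune signals in both hepatocytes and immune cells. In bulk tissue, fewer cells of a type and less RNA per cell cannot be told apart.

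The vehicle libraries held 13064928 to 41360187 estimated counts, with a median of 26105475. Total count gave a permutation p of 0.857 between early and late runs. Of 5 library measures tested with 100000 permutations, 2 passed a Benjamini-Hochberg adjusted p of 0.05. The number in the plate-style code of each library, read here as a well column, was 3.95 ± 2.497 (SD, n = 22) in early and 6.79 ± 2.95 (n = 19) in late runs (two-sided permutation test, p = 0.00244, adjusted p = 0.00610). The 20 most abundant genes took 27.9 ± 2.49% of counts in early and 25.5 ± 1.98% in late runs (permutation p = 0.00138, adjusted p = 0.00610). Albumin, the main plasma protein made by hepatocytes, alone took 10.7 ± 1.31% and 9.09 ± 1.27%. Early runs held 15 agouti, 3 black and 4 white animals, and late runs 14, 3 and 2. All 12 hepatocyte markers were detected in these libraries. Their summed level in CPM (counts scaled to a TMM-adjusted library total) ran from 113000 to 185583 in early livers, with a median of 148643. In late livers it ran from 94380 to 154630, with a median of 129355. The sums overlapped, but 18 of 19 late livers lay below the early median. Albumin made up most of these sums, with medians of 109746 CPM in early and 95844 CPM in late livers. Of the 12 markers, 10 had a negative log2 difference, late minus early (median −0.09). Albumin alone had an unadjusted p under 0.05 in edgeR's quasi-likelihood test. That was 8.33% of the list, beside 5.42% of all genes lower at that p.

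Single libraries stood apart. Early replicate 8, from run 2, held 6541 CPM of 15 summed skeletal muscle markers, while the next early liver held 1.56 and the highest late liver 0.986. Early replicate 9, also from run 2, had the highest summed acute phase genes (58952 CPM, next 33506), neutrophil and monocyte markers (80.01, next 7.97) and Kupffer cell markers (929, next 596) of the early livers. Early replicate 22 held 171091 CPM of a list of ribosomal precursor, nuclear and non-polyadenylated transcripts, and the next early liver 40057. Early replicate 15 had the highest summed cell cycle genes, 272 CPM against 187 in the next.

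**Figure D1:**
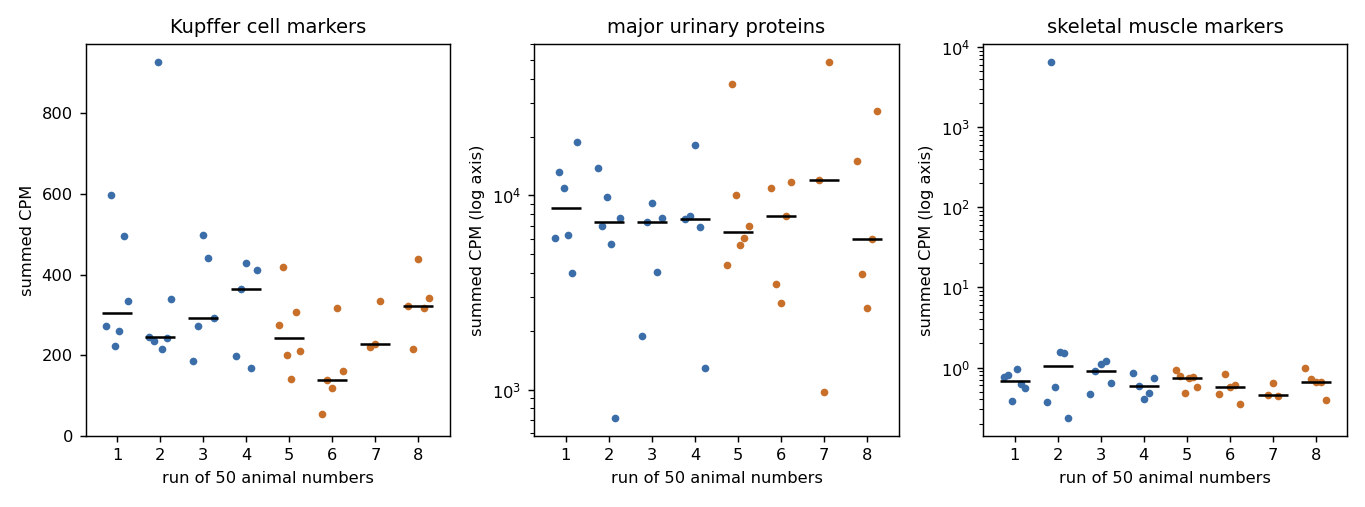
Summed CPM of Kupffer cell markers (linear axis), major urinary proteins and skeletal muscle markers (both log axes) in each vehicle liver by run of animal numbers, early and late runs in separate colours, with a line at the median of each run. One liver of run 2 holds 6541 CPM of muscle markers where every other liver is at or below 1.56, and Kupffer and urinary protein sums of the groups overlap.

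Between early and late vehicle livers, 2 genes fell and none rose among 13145 tested. Those calls were 0.0152% of the genes tested (edgeR quasi-likelihood test, Benjamini-Hochberg adjusted p under 0.05). At an unadjusted p under 0.05 there were 1236 genes, or 9.4%, of which 523 (3.98%) had higher and 713 (5.42%) lower values in late runs. DESeq2 called 10 genes, with 1268 (9.65%) at an unadjusted p under 0.05. The typical standard error of a log2 difference was 0.0905, and 95% of all log2 differences lay between −0.48 and 0.34, around a median of 0.00. The counts of called genes were small under most settings and moved with single libraries: leaving out each of the 41 livers in turn gave 0 to 4 calls, and 14 of those 41 fits gave none.

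Hal, histidine ammonia-lyase, opens the breakdown of histidine and is a gene of periportal hepatocytes (chr10:93488768-93519304, plus strand, GRCm38, GENCODE M21). Its level ran from 317 to 726 CPM in early livers, with a median of 433, and from 202 to 427 CPM in late livers, with a median of 334. The groups overlapped, but 12 of 22 early livers lay above the highest late liver and 19 of 19 late livers lay below the early median. The means were 459 ± 108 and 321 ± 60.0 CPM, a log2 difference of −0.52 ± 0.096 (SE, 95% interval −0.70 to −0.33) with an adjusted p of 0.0351 in edgeR's quasi-likelihood test. Hal therefore fell 1.43-fold. The mean of each run, in order of number, was 509, 464, 416 and 437 CPM in early runs and 327, 328, 285 and 329 CPM in late runs. Every late run mean was below every early one. In 27 of the 41 fits without 1 liver Hal kept an adjusted p under 0.05. It was lost without any of early replicates 1, 4, 6, 19 and 22 or late replicates 2, 5, 6, 9, 12, 13, 14, 18 and 19, where the adjusted p reached 0.0760. The size of the difference moved little over those 41 fits, from −0.54 to −0.48. With the well column as a term it was −0.52 at an adjusted p of 0.0808.

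Il1b encodes interleukin-1 beta, an inflammatory cytokine made mainly by macrophages and other myeloid cells (chr2:129364570-129371139, minus strand, GRCm38, GENCODE M21). It was a low transcript throughout, from 0.459 to 6.84 CPM in early livers (median 1.94) and from 0.213 to 2.43 CPM in late livers (median 0.735). The groups overlapped, with 9 of 22 early livers above the highest late liver and 18 of 19 late livers below the early median. The means were 2.37 ± 1.68 and 0.835 ± 0.509 CPM, and Il1b fell by 1.501 on the log2 scale (SE 0.288, 2.83-fold, adjusted p = 0.0351 in the same edgeR test). The run means were 2.18, 1.85, 1.55 and 4.06 CPM in early runs and 1.03, 0.552, 0.735 and 0.939 CPM in late runs. Run 4 had the highest mean, and without it the log2 difference was −1.17 at an adjusted p of 0.155. Il1b was called in 18 of the 41 fits without 1 liver. Without early replicate 9, 15, 1, 4, 6, 18, 19, 20, 21 or 22, or without late replicate 2, 4, 5, 6, 7, 9, 10, 12, 13, 14, 16, 18 or 19, its adjusted p lay above the threshold, at most at 0.0824. The log2 difference stayed between −1.67 and −1.36 over all 41 fits. With the well column as a term Il1b was at −1.86 with an adjusted p of 0.0197 in the same edgeR test, and so stayed called.

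**Figure D2:**
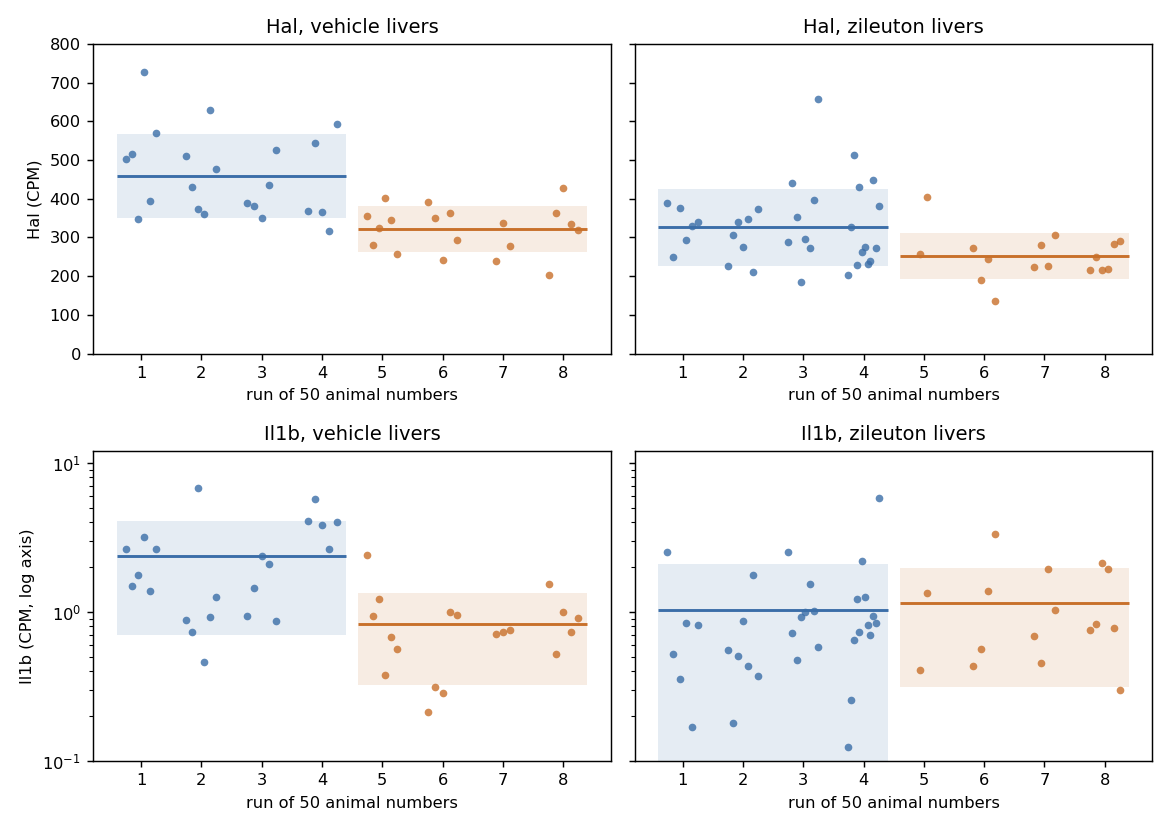
Level of Hal (top, linear axis) and Il1b (bottom, log axis) in CPM in each liver by run of animal numbers, vehicle on the left and zileuton on the right. Points are animals, coloured by early (runs 1 to 4) and late (runs 5 to 8); lines and bands are group means and SD, and the band of Il1b in early zileuton livers is cut at the axis floor. In vehicle livers Hal run means are 416 to 509 CPM in runs 1 to 4 and 285 to 329 CPM in runs 5 to 8, while single livers overlap.

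Markers of Kupffer cells had lower mean values in late livers. All 12 Kupffer cell markers were tested and all 12 had a negative log2 difference, with a median of −0.49, and 9 had an unadjusted p under 0.05, against 5.42% of all genes tested in that direction. None passed the adjusted threshold, so each is given as a value. Timd4, a phosphatidylserine receptor of resident macrophages, was at 5.72 ± 3.21 and 3.42 ± 1.58 CPM (log2 difference −0.74 ± 0.232), and 17 of 19 late livers lay below the early median. Cd5l, the most abundant of these markers and a secreted macrophage protein, was at 84.0 ± 54.3 and 56.8 ± 28.3 CPM (−0.56 ± 0.245). C1qc, a chain of complement C1q, was at 33.98 ± 13.2 and 23.9 ± 10.1 CPM (−0.50 ± 0.178). Clec4f, the lectin that most closely marks Kupffer cells, was at 75.4 ± 35.3 and 59.5 ± 25.6 CPM (−0.34 ± 0.197). The summed markers ran from 167 to 929 CPM in early livers, with a median of 283, and from 53.1 to 440 in late livers, with a median of 227. The sums overlapped, and 11 of 19 late livers lay below and 8 above the early median. None of the 12 was at 0 in every liver. Early replicate 9 weighed heavily: without it, 4 of 12 markers had an unadjusted p under 0.05 and the median was −0.38. With 13 surrogate variables (factors estimated from the data itself) as terms, 1 of 12 did and the median was −0.11. How far the macrophage share bears on Il1b was not tested.

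T, NK and B cell markers lay on the same side at much lower levels. Of 16 T, NK and B cell markers in the files, 11 were tested and all 11 were negative (median −0.45). None was called, and 5 had an unadjusted p under 0.05, against 5.42% of all genes in that direction. Nkg7, a granule protein of cytotoxic lymphocytes, was at 0.702 ± 0.231 and 0.503 ± 0.235 CPM. That count fell to 3 without early replicate 2, 9, 10 or 15 or late replicate 1, 4 or 16, and to 2 without late replicate 11, and with surrogate variables it was 0 with a median of −0.06. Neutrophil and monocyte markers depended on 1 liver. Of the 12, 5 were tested, with a median of −0.47 and 1 at an unadjusted p under 0.05, but without early replicate 9 the median was 0.00. It was −0.10 with the well column as a term and 0.28 with surrogate variables. Endothelial markers lay nearer 0: 14 were tested and their median was 0.06. Lyve1, a hyaluronan receptor of sinusoidal endothelium, alone had an unadjusted p under 0.05 (log2 difference 0.62). That was 7.14% of the list, beside 3.98% of all genes higher at that p.

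Interferon targets lay mostly on one side. Of 38 genes tested, 36 were lower in late livers, and the median log2 difference was −0.30. At an unadjusted p under 0.05 there were 13, or 34.2% against 5.42% of all genes in that direction. None passed the adjusted threshold. Irgm2, an interferon-induced GTPase, ran from 28.6 to 139 CPM in early livers (median 59.7) and from 21.7 to 67.8 CPM in late livers (median 37.03). The ranges overlapped over most of the late range, and 17 of 19 late livers lay below the early median. Its means were 63.4 ± 28.8 and 40.5 ± 14.6 CPM (−0.65 ± 0.177, adjusted p = 0.223). Igtp, a GTPase of the same family, was at 67.3 ± 38.8 and 41.6 ± 17.4 CPM (−0.69 ± 0.203). Zbp1, a sensor of nucleic acids, was at 8.94 ± 3.95 and 5.62 ± 2.57 CPM (−0.67 ± 0.201). Psmb8, a catalytic subunit of the immunoproteasome, was at 41.3 ± 10.51 and 30.7 ± 9.27 CPM (−0.43 ± 0.12). Iigp1, the most abundant member, was at 272 ± 105 and 181 ± 93.8 CPM, but its lowest livers held 3.17 and 0.474 CPM and its difference was −0.59 ± 0.335 (unadjusted p = 0.0861). The summed level of the 38 genes had a median of 1090 CPM (670 to 1581) in early and 747 CPM (557 to 1343) in late livers, and 17 of 19 late livers lay below the early median. Run means of that sum were 1142, 1124, 1071 and 952 CPM in early runs and 858, 696, 908 and 951 CPM in late runs. Runs 4 and 8 were nearly equal, and run 6 was the lowest. Leaving out single livers gave 12 to 17 members at an unadjusted p under 0.05. With surrogate variables as terms none of the 38 had a lower value at that p, and the median was 0.01.

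Antigen presentation genes lay on the same side. Of 19 MHC class I and II genes tested, 17 were lower in late livers (median −0.26) and 8 had an unadjusted p under 0.05, none of them called. That was 42.1% of the list, against 5.42% of all genes in that direction. Nlrc5, the transactivator of MHC class I genes, ran from 5.73 to 22.7 CPM in early livers (median 12.2) and from 4.93 to 15.4 CPM in late livers (median 8.23). All but 1 late liver lay below the early median, and the log2 difference was −0.59 ± 0.151 (adjusted p = 0.203). Tap2, a subunit of the peptide transporter, was at 60.3 ± 12.9 and 46.8 ± 9.75 CPM (−0.37 ± 0.0938, adjusted p = 0.203). Cd74, the invariant chain of MHC class II, was at 136 ± 55.0 and 90.2 ± 35.9 CPM, and H2-Aa, a class II alpha chain, at 68.0 ± 27.9 and 45.04 ± 19.1 CPM. The class I heavy chain H2-K1 went the other way, at 721 ± 333 and 767 ± 401 CPM (0.09 ± 0.208). MHC genes differ in sequence between the founders of this stock, and how that affected the authors' read counting was not tested. With the well column as a term the median of these 19 genes was −0.39 and with surrogate variables −0.00.

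Among plasma protein genes, albumin, fibrinogen and most acute phase genes had modestly lower values in late livers. Alb ran from 85345 to 140775 CPM in early livers (median 109746) and from 61186 to 109372 CPM in late livers (median 95844). All 19 late livers lay below the early median, and the means of 109082 ± 15682 and 89423 ± 14442 CPM gave a log2 difference of −0.29 ± 0.0744 with an adjusted p of 0.204. The fibrinogen chains had similar differences: Fga was at 5226 ± 1233 and 4160 ± 908 CPM (−0.33 ± 0.101), and Fgb at 4504 ± 905 and 3707 ± 803 CPM (−0.28 ± 0.0925). Of 24 acute phase genes tested, 23 were negative (median −0.21) and 7 had an unadjusted p under 0.05. The serum amyloid gene Saa2 was at −1.95 ± 0.839, but early replicate 9 alone held 2866 CPM while the next early liver held 906, and without that liver the difference was −0.43 (unadjusted p = 0.535). The 7 became 4 without early replicate 9, 11 without early replicate 15, 12 without early replicate 18 and 13 without late replicate 1. Of 29 complement and coagulation genes, 25 were negative (median −0.08) and 5 had an unadjusted p under 0.05, among them C3, the central complement protein, at 9972 ± 2449 and 8201 ± 2241 CPM (−0.28 ± 0.116). With surrogate variables none of the acute phase genes and 1 of the complement and coagulation genes had an unadjusted p under 0.05, and both medians were 0.02. Of 27 apolipoproteins and plasma carriers, 17 were negative and 10 positive (median −0.04), and 2 were lower at that p, a share of 7.41% against 5.42% of all genes.

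Immediate early genes, glucocorticoid and hypoxia response genes and unfolded protein response genes also lay mostly below 0. The other stress lists given here did not. Of 18 immediate early genes, 17 were negative (median −0.32) and 6 had an unadjusted p under 0.05. At that p 5.42% of all genes were lower. Nr4a1, an orphan nuclear receptor induced within minutes of a stimulus, ran from 0.445 to 11.2 CPM in early livers (median 1.82) and from 0.0510 to 5.30 CPM in late livers (median 0.703). The ranges overlapped, 17 of 19 late livers were below the early median, and the log2 difference was −1.59 ± 0.432 (adjusted p = 0.223). Fos was at 2.27 ± 3.95 and 1.08 ± 0.876 CPM (−1.10), and without early replicate 14, at 19.4 CPM, its difference was −0.46 (unadjusted p = 0.126). Zfp36, an mRNA decay factor and the most abundant of the list, was at 71.3 ± 19.6 and 56.9 ± 19.6 CPM. Of 14 glucocorticoid and hypoxia response genes, 11 were negative and 4 had an unadjusted p under 0.05. Fkbp5, a co-chaperone of the glucocorticoid receptor, was at 43.04 ± 18.4 and 28.95 ± 15.03 CPM (−0.57 ± 0.191), and the metallothionein Mt2 at 221 ± 273 and 90.9 ± 89.8 CPM (−1.28 ± 0.526). Without early replicate 11, at 1139 CPM, Mt2 was at −0.97 (unadjusted p = 0.0611). Of 18 heat shock genes 16 were positive (median 0.15), with 1 higher and 1 lower at an unadjusted p under 0.05. That was 11.1% of the list, near the 9.4% of all genes in either direction. Of 22 unfolded protein response genes 18 were negative and 4 positive (median −0.07). At an unadjusted p under 0.05, 1 of them was lower, or 4.55%, near the 5.42% of all genes. The 16 genes of the integrated stress response had a median of 0.00, and the 27 targets of the oxidative stress regulator NRF2 one of −0.01. All 22 cell cycle genes tested were negative (median −0.36) with 6 at an unadjusted p under 0.05, but without early replicate 15 there was 1 and the median was −0.13.

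Around Hal, the other genes of periportal hepatocytes had smaller differences. Of 18 tested, 16 were negative with a median of −0.11, Hal alone was called, and Sds was the other member with an unadjusted p under 0.05. Those 2 were 11.1% of the list, beside 5.42% of all genes lower at that p. Sds, serine dehydratase of amino acid breakdown, was at 197 ± 71.1 and 142 ± 40.9 CPM (−0.48 ± 0.145). Arg1, the arginase of the urea cycle, was at 1396 ± 252 and 1329 ± 241 CPM, and Cyp2f2, a periportal cytochrome P450, at 1128 ± 254 and 1029 ± 270 CPM. Pck1, the gluconeogenic carboxykinase, was at 1827 ± 799 and 1194 ± 530 CPM (−0.61 ± 0.210), with 18 of 19 late livers below the early median. Of 17 pericentral genes, 14 were positive and 3 negative (median 0.09). At an unadjusted p under 0.05, 1 of them was higher, or 5.88%, near the 3.98% of all genes. That 1 gene was Lgr5, a receptor that strengthens Wnt signalling, at 4.34 ± 1.38 and 6.07 ± 2.17 CPM (0.48 ± 0.156). Cyp2e1 was at 6084 ± 1573 and 6303 ± 1534 CPM.

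The medians of clock genes had opposite signs according to phase, with exceptions, and none of the genes was called. Of 7 genes that peak with Bmal1, 4 had higher and 1 lower values in late livers at an unadjusted p under 0.05 (median 0.34). Among all genes 3.98% were higher and 5.42% lower at that p. Cry1, a repressor of the clock, was at 10.6 ± 3.86 and 14.4 ± 5.70 CPM (0.44 ± 0.170), and Arntl, which encodes Bmal1, at 20.2 ± 7.62 and 25.5 ± 7.98 CPM (0.34 ± 0.209). The exception was Gys2, the glycogen synthase of liver, at 78.9 ± 19.5 and 63.3 ± 18.6 CPM (−0.32 ± 0.105), with 18 of 19 late livers below the early median. Without late replicate 19 the count of 4 became 2. Of 12 genes that peak opposite to Bmal1, 8 were negative and 4 positive (median −0.25), and 2 had lower values at that p. Nr1d1, the clock repressor Rev-erb alpha, was at 85.1 ± 39.1 and 56.2 ± 30.2 CPM (−0.60 ± 0.245), and Per1 at 12.8 ± 7.84 and 7.97 ± 6.05 CPM (−0.70 ± 0.323). Without late replicate 6, 8 of 12 had an unadjusted p under 0.05 and the median was −0.70. The count was 1 without early replicate 4, 8, 15 or 22 or late replicate 4, 5, 11, 13, 14, 16 or 18. The labels used here give no time of collection. A clock score was also used as a term, the mean scaled level of the opposite-phase genes minus that of the Bmal1-phase genes. That fit called 7 genes, with Hal at −0.55 and an adjusted p of 0.0252. The score came from these same clock genes, and an effect of clock phase on Hal was not tested.

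Higher values in late livers were fewer and often rested on single animals. At an unadjusted p under 0.05, 3.98% of all genes were higher. Of 20 major urinary protein genes, which encode near-identical pheromone carriers between which reads can be split, 19 were positive (median 1.32) and 8 had an unadjusted p under 0.05. Their summed level nevertheless had a median of 7455 CPM in early and 6962 CPM in late livers, and the late maximum was 48825 CPM against 18884 CPM in early livers. Mup20 was at 15.8 ± 9.39 and 26.4 ± 22.4 CPM (0.75 ± 0.278), and 17 of 19 late livers were above the early median. Mup9, the most abundant of them, was at 2412 ± 2241 and 3912 ± 4736 CPM. Without late replicate 19 the count was 5 and the median 0.57, and with surrogate variables the count was 0 and the median 0.00. Of 28 CAR and PXR targets, the drug-induced P450s and their partners, 4 had an unadjusted p under 0.05 and none did so without late replicate 15. Cyp2b10 reached 3176 CPM in 1 late liver, while the next held 271 and the highest early liver 212, and without it the log2 difference of 1.66 became 0.44 (unadjusted p = 0.119). Of 23 bile acid genes 4 had an unadjusted p under 0.05, or 2 without early replicate 10 or late replicate 19. Cyp8b1, which sets the share of cholic acid, was at 272 ± 99.7 and 389 ± 150 CPM (0.52 ± 0.160), with 15 of 19 late livers above the early median. Of 31 PPAR alpha targets 27 were positive (median 0.13) and 3 had an unadjusted p under 0.05. Those 3 became 8 without early replicate 15, 6 without early replicate 1, and 5 without early replicate 7 or 20 or late replicate 17.

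Growth hormone linked genes had values on both sides of 0. Of 15 genes of the growth hormone and IGF axis 11 were negative (median −0.09), with 3 lower and 1 higher at an unadjusted p under 0.05. Among all genes 5.42% were lower and 3.98% higher at that p. Of 27 sex-biased liver genes 12 were negative (median 0.02), with 3 higher and 2 lower at that p, and none of either list was called. The lower 2 became 1 without any of early replicates 3, 4, 12, 13 and 16 or late replicates 4, 6, 8, 9, 13 and 14. Cux2, a female-biased repressor, was at 27.7 ± 14.02 and 15.1 ± 9.27 CPM (−0.88 ± 0.286), and Socs2, a feedback inhibitor of growth hormone signalling, at 23.8 ± 18.98 and 12.5 ± 7.96 CPM (−0.92 ± 0.308). Elovl3, a male-biased fatty acid elongase, was at 5.39 ± 3.94 and 11.6 ± 9.63 CPM (1.10 ± 0.368). The medians of 3 lists lay near that of all genes: of 25 cholesterol synthesis genes none had an unadjusted p under 0.05 (median −0.00), of 79 cytosolic ribosomal protein genes 3 did (median 0.01), and of 74 respiratory chain genes 2 did (median 0.04). Of 18 glucose and fasting genes 13 were negative (median −0.09) and Pck1 alone had an unadjusted p under 0.05. Over the 46 lists, 885 genes were tested and Hal was the only one called.

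**Figure D3:**
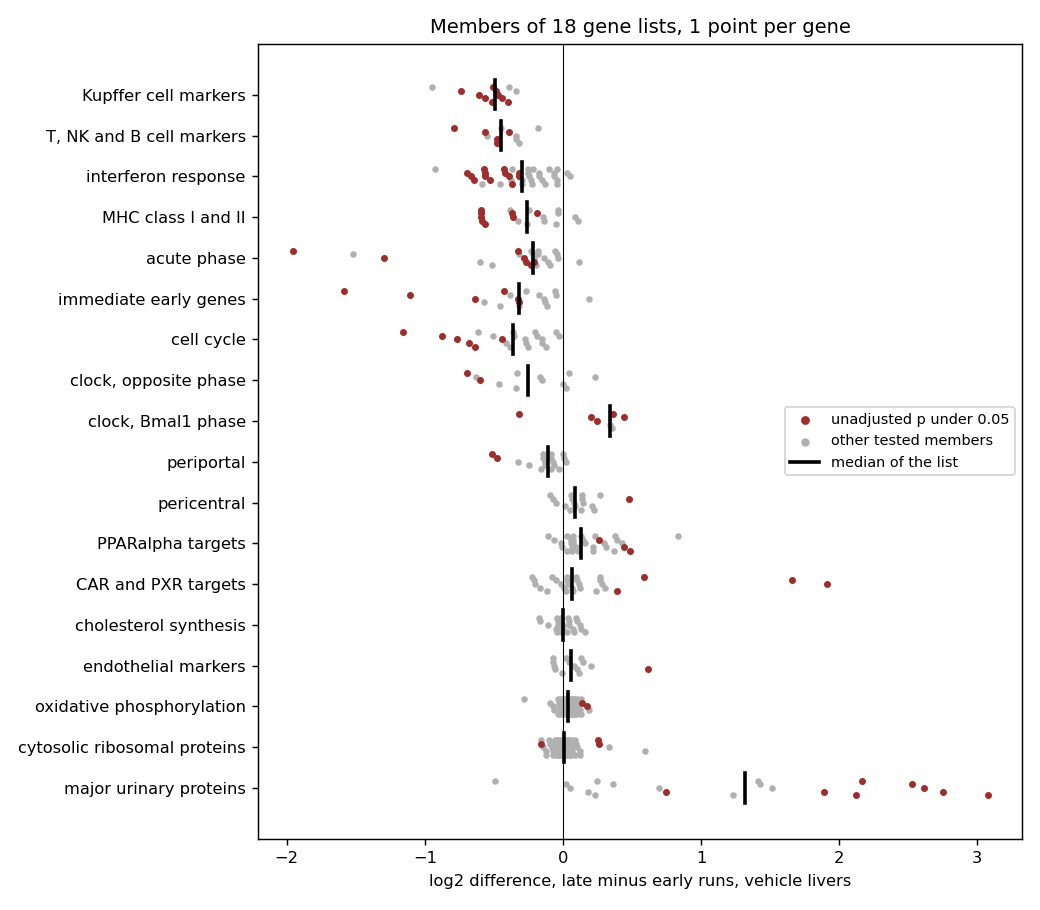
Log2 difference (late minus early vehicle livers) of each tested member of 18 gene lists, 1 point per gene, with members at an unadjusted p under 0.05 in red and a bar at the list median. All 12 Kupffer cell markers lie below 0 (median −0.49), cholesterol synthesis genes lie around 0, and major urinary proteins spread from −0.49 to 3.07.

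The 10 genes of lowest p in each direction were chosen by this contrast, so their values are a description. Rgs1, a regulator of G protein signalling in lymphocytes, was at 0.670 ± 0.497 and 0.236 ± 0.181 CPM (−1.48 ± 0.313, adjusted p = 0.110). Ly6a, the surface protein Sca-1, ran from 1.91 to 215 CPM in early livers (median 7.10) and from 0.583 to 15.04 CPM in late livers (median 3.21), with a log2 difference of −2.34 ± 0.536. Most of its spread came from the early livers, of which 8 lay above the highest late liver. Prkab1, a regulatory subunit of AMP-activated kinase, had tight groups at 33.1 ± 4.86 and 27.7 ± 3.49 CPM (−0.26 ± 0.0602, adjusted p = 0.172). Gnat1, a transducin alpha subunit best known from rods, was at 7.82 ± 4.54 and 4.07 ± 1.78 CPM, and Dram1, an autophagy regulator, at 1.13 ± 0.616 and 0.594 ± 0.237 CPM. Mylpf, a myosin light chain of fast muscle, was at 167 CPM in early replicate 8, where the next early liver held 0.752 CPM. Without that liver its log2 difference was −0.08.

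Among the 10 with higher values in late livers, Adgra3, an adhesion G protein-coupled receptor, was at 38.2 ± 6.94 and 49.5 ± 12.2 CPM (0.37 ± 0.0951, adjusted p = 0.203). Cited2, a transcriptional co-regulator, was at 27.5 ± 5.46 and 34.7 ± 6.49 CPM, with 18 of 19 late livers above the early median. Npnt, the matrix protein nephronectin, ran from 0.289 to 5.98 CPM in early livers (median 1.12) and from 0.936 to 9.27 CPM in late livers (median 2.90). Here too 18 of 19 late livers were above the early median, and the log2 difference was 1.21 ± 0.311. Ppp2r5a, a regulatory subunit of protein phosphatase 2A, was at 186 ± 28.5 and 219 ± 26.2 CPM, and Uck1, uridine-cytidine kinase, at 42.1 ± 13.02 and 58.4 ± 15.5 CPM. Paqr7, a membrane progestin receptor, was at 34.9 ± 9.59 and 48.6 ± 15.7 CPM. The remaining genes were Mab21l2, Dcaf17, C730002L08Rik and Mup14, and the last rested on 1 late liver at 38.4 CPM where the next held 1.597. For 15 of the 20 genes the 4 late run means lay on one side of the 4 early run means. That is a description, since the genes were picked on the same livers.

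**Figure D4:**
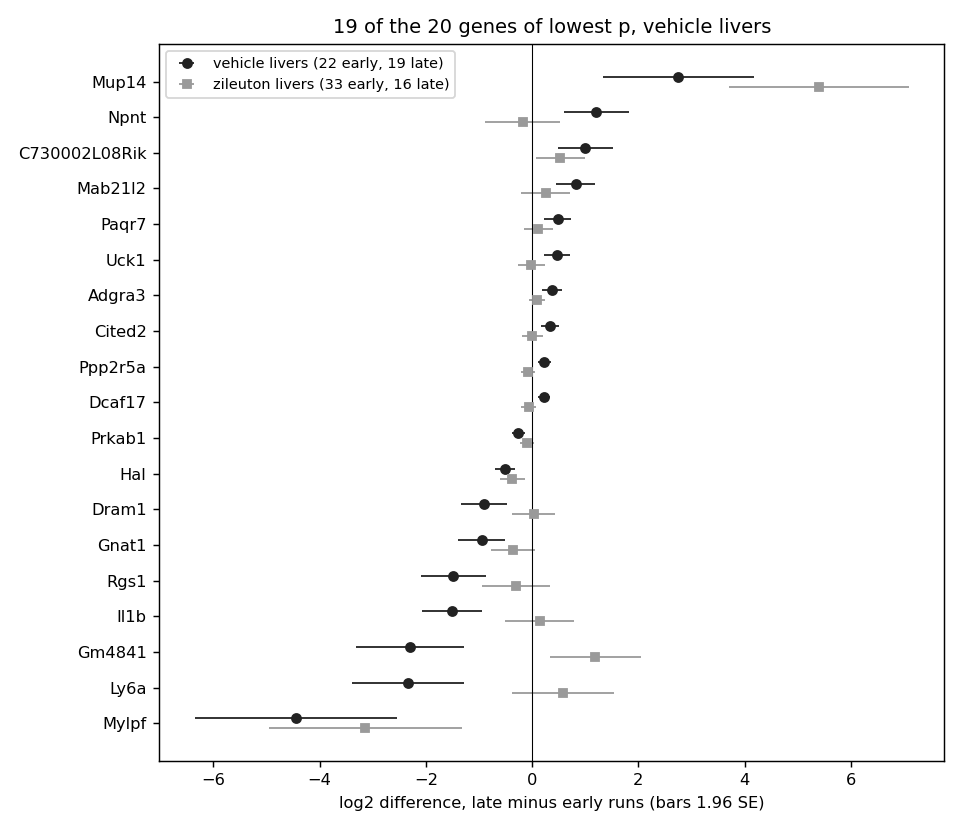
Log2 difference (late minus early runs) of 19 of the 20 genes of lowest p in vehicle livers, for vehicle livers (circles) and zileuton livers (squares), with bars of the normal 95% interval. Hal and Il1b are the 2 that passed the adjusted threshold in vehicle livers, and Mylpf, high in early replicate 8, has the widest vehicle bar.

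Few genes were called between runs within the early or within the late set, and fewer without the muscle library. With 3 to 6 vehicle livers per run, few calls do not show that the runs were alike. In a test of those runs, 10 of 13145 genes (0.0761%) were called and 908 (6.91%) had an unadjusted p under 0.05, and without early replicate 8 there was 1 call. Among those of lowest p were Mylpf, Ankrd23, Pygm, Slc25a4 and H19. All of these 5 were highest in early replicate 8: Ankrd23 stood at 305 CPM there and at 2.37 in the next early liver, Slc25a4 at 289 and 7.35 CPM, and H19 at 369 and 3.93 CPM. The estimated correlation of livers of the same run was 0.0014, and with run as a random block 1 gene was called. With counts summed per run, so that 4 early runs met 4 late runs, no gene was called and Hal was at −0.48 with an adjusted p of 0.307.

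The same split in the zileuton livers, which share no animal with the vehicle livers, gave only partly the same differences. The well column, as read here, ran from 1 to 12 in early and from 6 to 12 in late zileuton livers. The split of the zileuton livers was therefore not free of the plate layout, and their columns were not compared by a test. In those livers 14 of 13364 genes (0.105%) were called, 10 higher (0.0748%) and 4 lower (0.0299%) in late runs, and 1389 (10.4%) had an unadjusted p under 0.05, 5.08% higher and 5.31% lower. Of 1230 genes with an unadjusted p under 0.05 in vehicle livers and tested in both, 725 (58.9%) had the same sign in zileuton livers, against 54.7% of all 13089 genes. At that p in both sets of livers there were 192 genes, of which 152 had the same sign. Across those 13089 genes, which are not independent replicates, Pearson's r of the log2 differences was 0.209 and Spearman's rho 0.122. Hal was at 326 ± 98.4 CPM (n = 33) in early and 251 ± 59.2 CPM (n = 16) in late zileuton livers, a log2 difference of −0.37 ± 0.119 with an adjusted p of 0.200. The difference between the vehicle and zileuton values was 0.14 ± 0.154 (adjusted p = 0.902 in edgeR's interaction test). Il1b was at 1.04 ± 1.06 and 1.14 ± 0.830 CPM (0.15 ± 0.330), which differed from the vehicle value by 1.65 ± 0.445 with an adjusted p of 0.188. Nr4a1 was at −1.66 ± 0.486, and Sds at −0.63 ± 0.192, close to their vehicle values. Some lists kept the sign of their vehicle median. Of 18 periportal genes, 11 were lower at an unadjusted p under 0.05 in zileuton livers (median −0.20) and none was called. Of 18 glucose and fasting genes 9 were lower at that p (median −0.32). Of 31 PPAR alpha targets 9 were higher (median 0.21) and 1 was called.

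Interferon targets had the opposite sign in zileuton livers. Their median there was 0.23, with 11 of 38 at an unadjusted p under 0.05 and higher in late runs and none called. Their summed level did not follow that median, since it was 808 CPM (median) in early and 807 CPM in late zileuton livers. In the interaction test 18 of 38 had an unadjusted p under 0.05 and all 18 were positive, where 3.94% of all 13763 genes tested were. None of them passed the adjusted threshold, and the lowest adjusted p was 0.0902 for Zbp1, at 5.83 ± 2.52 and 8.84 ± 5.09 CPM in zileuton livers. Of 19 MHC genes 10 were positive in the interaction test at an unadjusted p under 0.05, while in the zileuton livers themselves 1 was higher and 1 lower at that p. The Kupffer cell markers had a median of 0.00 in zileuton livers, and 3 of 12 were positive in the interaction at that p. C3 was at 10284 ± 2788 and 13789 ± 4848 CPM in zileuton livers, and its difference from the vehicle value was 0.71 ± 0.174 (adjusted p = 0.102). Other lists changed sign as well. Genes that peak with Bmal1 had a median of −0.31 in zileuton livers, and 5 of 7 were negative in the interaction at an unadjusted p under 0.05. Genes that peak opposite to Bmal1 had a median of 0.10 there. Major urinary proteins had one of −0.58, with 6 of 20 negative and 1 positive in the interaction at that p.

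In the interaction test 4 genes were called (0.0291% of 13763), all positive, and 982 (7.14%) had an unadjusted p under 0.05, 3.94% positive and 3.2% negative. Gm4841, a predicted GTPase gene of the interferon-induced family, ran from 0.417 to 20.6 CPM in early (median 1.39) and from 0.128 to 4.45 CPM in late vehicle livers (median 0.622). Its zileuton means were 1.25 ± 2.17 and 2.90 ± 4.52 CPM, and the log2 differences of −2.30 ± 0.515 and 1.19 ± 0.436 differed by 3.49 ± 0.673 (adjusted p = 0.0116). Myc, a growth-linked transcription factor, was at 3.23 ± 1.41 and 2.96 ± 1.22 CPM in vehicle livers. In zileuton livers it rose from 3.35 ± 1.41 to 8.00 ± 4.89 CPM (1.26 ± 0.187, adjusted p = 0.000225), and the interaction was 1.397 ± 0.272 (adjusted p = 0.0116). Zcchc2, a zinc finger protein, was at 33.2 ± 3.65 and 33.7 ± 7.397 CPM in vehicle livers and rose from 32.4 ± 5.11 to 48.1 ± 16.5 CPM in zileuton livers (interaction 0.55 ± 0.119, adjusted p = 0.0423). N6amt1, a methyltransferase of a translation release factor, was at 6.12 ± 1.41 and 4.89 ± 1.27 CPM in vehicle and at 5.07 ± 1.16 and 6.42 ± 1.296 CPM in zileuton livers (interaction 0.66 ± 0.143, adjusted p = 0.0423). With well column and row as terms 1 gene was called in this test, and without early replicate 8 there were 5.

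**Figure D5:**
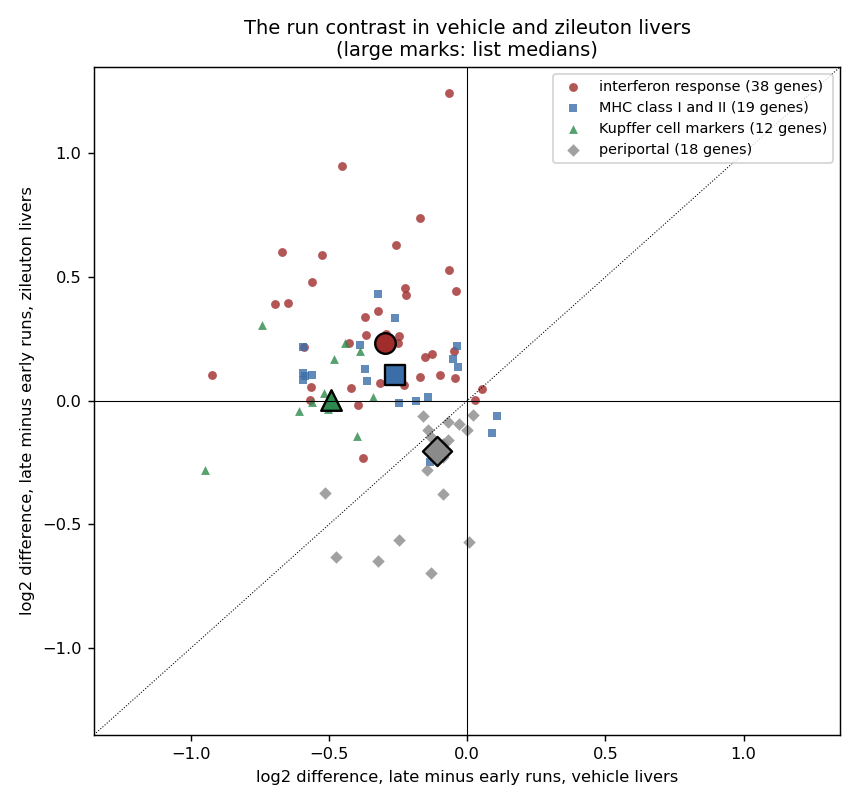
Log2 difference (late minus early runs) in vehicle livers (horizontal) and zileuton livers (vertical), 1 point per gene, for interferon targets (38), MHC genes (19), Kupffer cell markers (12) and periportal genes (18); large marks are list medians and the dotted line marks equal values. The interferon median lies at −0.30 and 0.23 and the periportal median at −0.11 and −0.20.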

How the data were processed

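RNA sequencing was done on 90 mouse livers. The 2 deposited tables hold animals by gene (18223 genes). The first holds estimated counts that the authors deposited without normalization, of which 76.7% were whole. The second holds a signal that the authors normalized, equal to the rounded counts divided by 1 factor per animal to within 9.91e-06 for counts above 50. Partek, STAR, DESeq2 and mm10 are named in the submitters' processing notes without version or role. No source used here gives the counting tool, annotation or strand setting, so overlapping genes and near-identical copies may share reads. The tables list 0 genes with the mitochondrial prefix. No vehicle library repeated another: the chi-square per gene of the closest pair was 52.3.

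Estimated counts were rounded and tested with edgeR 4.0.16 in R 4.3.3 (TMM, filterByExpr, robust quasi-likelihood F test, Benjamini-Hochberg), late minus early, on the 41 vehicle livers. Zileuton livers were fitted apart, the interaction over all 90, and runs within the early and late sets over the vehicle livers. The common biological coefficient of variation was 31.4%. Alternatives used DESeq2 1.42.0, limma 3.58.1, sva 3.50.0 and mgcv 1.9.3, and permutations scipy 1.17.1. CPM are on TMM-scaled totals. Library measures were compared with 100000 permutations. The edgeR script was tested on simulated data. Symbols matched GENCODE M21 for 17848 genes (97.9%).

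Each library is 1 animal. Replicate numbers follow accession order and only name libraries; the labels pair no animals. Members and lists were chosen with earlier results of these data known. With fewer than 10 calls, the 10 genes of lowest p in each direction were named, and in each list the called members or the most abundant one, the 6 of lowest p among runs and the called interaction genes (mean of at least 1 CPM). Some genes under this rule are not reported here. Other list members given here were chosen after their values were seen. A list is described by counts and median, with no set test.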

Additional observations from a re-analysis of the deposited data

Results flagged for a closer look

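In 4 genes the difference between late and early runs was itself different in vehicle and zileuton livers, by an interaction term that passed an adjusted p of 0.05 (edgeR quasi-likelihood test). Fewer genes were called in this test with well column and row as terms. The zileuton difference exceeded the vehicle difference by 3.49 on the log2 scale for Gm4841, where the early vehicle livers ran up to 20.6 CPM and 5 of 22 lay above the highest late one. Late zileuton livers had a Gm4841 median of 1.25 CPM and ran up to 16.6 CPM. The excess was 1.397 for Myc, 0.66 for N6amt1 and 0.55 for Zcchc2. For Myc and Zcchc2 the vehicle livers were at log2 differences of −0.13 and 0.02, and the late zileuton livers were high.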

How the results depend on the processing

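The log2 differences of Hal and Il1b kept their sign under all 71 alternatives on the same scale, between −0.57 and −0.36 for Hal and between −1.89 and −1.03 for Il1b. The adjusted p did not keep its side: Hal passed in 44 and Il1b in 31 of the 71. Against 2 genes called, there were 105 without a filter on low counts (80 of them mostly from early replicate 8, and 2 in all without that filter and that library, an alternative chosen after seeing the data), 37 at a mean of at least 1 CPM, 10 with DESeq2, 5 with well column and row, 7 with a clock score, 8 on run number as a trend, 11 with all 90 animals and 4 without run 3. There was 1 with limma-voom, on the authors' normalized values (pseudocount 1 or 10), with coat colour, with position within the run, with run as a block, and without run 2 or 4. There were 0 with surrogate variables, on counts summed per run, in agouti animals, without the 5 smallest libraries, without run 1, 5, 6, 7 or 8, and with a GC content and length trend removed. The fits without each single library, most added after seeing the data, gave 0 to 4.

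Of the list members 1 was called. The count was 19 without a filter, 14 at a mean of at least 1 CPM, 2 with DESeq2 or all 90 animals, and 3 with the clock score or the run trend. It was 0 with well terms, surrogate variables or counts per run, in agouti animals, without the 5 smallest libraries, without run 1, 2, 5, 6, 7 or 8, and with the GC trend removed, and 0 to 1 without single libraries. The interaction gave 1 call with well terms and 5 without early replicate 8. Runs within the early and late sets gave 136 without a filter, 1 with well terms and 1 without early replicate 8. Zileuton livers gave 28 without a filter. The sign of the muscle gene Mylpf reversed, to 0.30 with surrogate variables. The cause of these changes was not tested. No paired analysis was possible because the replicate numbers only name libraries and the labels pair no animals. Depth limits low transcripts such as Il1b and Rgs1, whose values rest on few reads.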
